A study of Mus musculus with 16 samples.

Results

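Polyamines are small positively charged molecules (putrescine, spermidine and spermine) that proliferating cells make in quantity. Ornithine decarboxylase (*Odc1*) makes putrescine, S-adenosylmethionine decarboxylase (*Amd1*) supplies the aminopropyl donor, and spermidine synthase (*Srm*) and spermine synthase (*Sms*) build the longer polyamines. The antizymes (*Oaz1*, *Oaz2*) bind ornithine decarboxylase and hand it to the proteasome, and antizyme inhibitor 1 (*Azin1*), a relative of the decarboxylase without its activity, takes antizyme away from it. Breakdown runs through spermidine/spermine acetyltransferase (*Sat1*) and polyamine oxidase (*Paox*), or directly from spermine through spermine oxidase (*Smox*). Activated T cells are known for switching on this pathway as they grow. These 10 genes were taken from a count table of 54532 genes by their names, and each name matched 1 row. All 10 passed the filter on low counts, as did 15096 genes in all. Several of these enzymes are controlled at translation or by protein turnover, which RNA counts do not show.

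The RNA came from CD8+ T cells of wild-type C57BL/6J mice, cultured as a model of TCF1+ stem-like cells. Naive cells from spleen were activated again and again over 4 days with microbeads against CD3 and CD28 in low-dose IL-2 (85 U/ml), and the live cells were then purified. They were kept for 1 h at 37 °C with 100 ng/ml prostaglandin E2 (PGE2) or without it. After that they spent 4 h in the same dose of IL-2 alone (here called unstimulated) or in IL-2 with fresh beads at 1 bead per cell (stimulated). All 4 groups therefore shared earlier bead activation and IL-2, and no group was resting. There were 4 replicates in each of the groups unstimulated untreated, unstimulated PGE2, stimulated untreated and stimulated PGE2. The labels number the replicates 1 to 4 but do not say whether a number stands for a mouse, a culture or a day, so p-values measure the spread between these samples, which may be technical.

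The counts summed to 22678254 to 42950763 per sample, and the lowest count of any of the 10 genes in any sample was 346 (*Paox*). The summed level of 5 CD8+ T cell markers (*Cd3e*, *Cd3d*, *Cd8a*, *Cd8b1* and *Tcf7*, the gene of TCF1) was 2222 to 4113 CPM (counts scaled to library size), and *Tcf7* itself was present in every sample at 289 to 1540 CPM. Markers of other cells were low, at 5.0 to 10.2 CPM for 3 CD4+ T cell markers, 4.37 to 19.3 CPM for 4 B cell markers, 3.04 to 6.57 CPM for 5 myeloid markers and 0.0845 to 0.821 CPM for 4 erythroid markers. *Cd4*, *Ms4a1* and *Lyz2* reached at most 1.87, 0.929 and 0.0551 CPM. Other members of the same lists were higher and present in every sample. *Foxp3* was at 3.09 to 9.07 CPM, *Cd79b* at 3.23 to 15.1 CPM and *Cd68* at 2.65 to 6.19 CPM. Of 3 NK cell markers, *Ncr1* was at 0 in every sample, *Klrb1c* reached at most 0.0999 CPM, and *Eomes*, which CD8+ T cells also express, made up the rest and moved with the groups (5.55 to 178 CPM). The part of other cell types in the results was not tested beyond these values. In bulk RNA, fewer cells of a kind and less RNA per cell cannot be told apart.

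The antizymes share a feature that sets them apart from the other 8 genes. Their coding sequence is read in full only when the ribosome slips forward by a base at the stop codon of a short opening frame, and polyamines are known to favour that slip. The sites were found in the GENCODE M21 transcripts (GRCm38), and they are shown because both paralogues carry this switch, and their RNA is described side by side below. Capitals mark the codon before the stop and the stop codon. The *Oaz1* site lies in an exon at chr10:80828278-80828307 and the *Oaz2* site in an exon at chr9:65686255-65686284, both on the plus strand. Of the 30 bases, 28 were identical.
Oaz1: ggcctcggtggtgcTCCTGAtgtccctcac
Oaz2: ggcctctgtggtgcTCCTGAtgcccctcac

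Promoter windows from RefSeq (GRCm38.p6, from 250 bases before to 50 after a start) were at hand for 8 of the 10 genes, as 10 windows. They were searched for the E-box CACGTG, which MYC and its relatives bind, for the cAMP response element TGACGTCA, since PGE2 receptors on T cells signal through cAMP, and for the STAT element TTCNNNGAA, since IL-2 signals through STAT5. Each motif reads the same on both strands, and they do not overlap one another. Only the upstream *Sms* window held a match, an E-box that begins at position -196 from the start, at chrX:157492478-157492483. *Srm* and *Azin1* had no window, and sequence outside the windows was not searched for any gene. Over 32817 windows of all genes the E-box occurred in 7.15%, the cAMP response element in 1.79% and the STAT element in 8.29%. The parts of the *Odc1*, *Amd1* and upstream *Sms* windows that precede the annotated exons are shown, since these 3 synthesis genes rose on stimulation (below). Capitals mark the motif. The stretches are chr12:17544623-17544793 (plus strand), chr10:40302189-40302438 (minus strand) and chrX:157492288-157492537 (minus strand).
Odc1: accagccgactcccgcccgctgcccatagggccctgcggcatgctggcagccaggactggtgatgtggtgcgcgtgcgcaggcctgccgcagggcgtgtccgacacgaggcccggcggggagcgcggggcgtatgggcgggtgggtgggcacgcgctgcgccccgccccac
Amd1: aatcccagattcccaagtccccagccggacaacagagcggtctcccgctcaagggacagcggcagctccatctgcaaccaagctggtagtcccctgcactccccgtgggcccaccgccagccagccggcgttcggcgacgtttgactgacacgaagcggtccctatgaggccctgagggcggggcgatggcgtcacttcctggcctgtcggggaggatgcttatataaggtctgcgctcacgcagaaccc
Sms: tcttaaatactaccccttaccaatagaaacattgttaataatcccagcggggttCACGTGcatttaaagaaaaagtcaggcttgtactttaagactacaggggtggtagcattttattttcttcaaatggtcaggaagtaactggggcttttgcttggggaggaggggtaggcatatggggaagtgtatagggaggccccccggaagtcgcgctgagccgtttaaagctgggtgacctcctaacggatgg
The *Odc1* stretch was 77.2% G and C, the *Amd1* stretch 64.4% and the upstream *Sms* stretch 47.2%. In the other *Sms* window, which held no match, the stretch (chrX:157491373-157491618, not shown) was 75.2% G and C.

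Stimulation moved nearly the whole set. Without PGE2, 9 of the 10 genes passed an adjusted p of 0.05 in edgeR's quasi-likelihood test. Of these, 8 rose (*Odc1*, *Srm*, *Sms*, *Amd1*, *Azin1*, *Sat1*, *Paox* and *Smox*) and 1 fell (*Oaz2*). Among all 14205 genes tested, 66.5% passed, 31.7% upwards and 34.8% downwards, so the 8 of 10 that rose stand beside 31.7% of all genes. At the study's threshold for differentially expressed genes (DEGs, with a fold change of at least 2 as well), 4 of the 10 passed (*Odc1*, *Srm*, *Amd1* and *Smox*), against 23.2% of all genes. The 2 groups of samples did not overlap for 8 of the 10, against 61.6% of all genes. The median log2 fold change was 0.83 over the 10 genes and -0.031 over all genes. With PGE2 the same genes passed in the same directions, which gives 8 risen and 1 fallen against a background of 64.2% passing, 32.5% upwards and 31.7% downwards. There the DEGs were *Odc1*, *Srm*, *Sms* and *Amd1* (4 of 10, against 22.1%), 9 genes did not overlap (against 60.2%), and the median log2 fold change was 0.66 over the 10 genes and 0.0022 over all genes. Each group of samples enters 2 of the 4 comparisons, 1 of stimulation and 1 of PGE2, so values that share a group are not independent of each other.

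PGE2 split the set. In unstimulated cells 8 of the 10 genes passed, with 4 risen (*Odc1*, *Oaz2*, *Sat1* and *Smox*) and 4 fallen (*Srm*, *Sms*, *Amd1* and *Azin1*). The background was 28.4% of 14505 genes, with 12.9% upwards and 15.5% downwards, and the same 8 genes did not overlap between the groups, against 28.9% of all genes. Only *Srm* was a DEG, against 3.38% of all genes. In stimulated cells 4 of the 10 passed, with 2 risen (*Oaz2* and *Smox*) and 2 fallen (*Sms* and *Paox*), none of them a DEG. The background was 9.84% of 13922 genes (6.04% upwards and 3.80% downwards) for passing, 1.75% for DEGs and 17.9% for groups without overlap, which was the case for 4 of the 10. The median log2 fold change over the 10 genes was -0.11 in unstimulated and -0.17 in stimulated cells, against -0.0010 and -0.0061 over all genes. The count in stimulated cells was sensitive to single libraries. It fell to 2 without stimulated untreated replicate 1 or stimulated PGE2 replicate 4 and to 1 without stimulated untreated replicate 2 or stimulated PGE2 replicate 3, and with the replicate number as a block it was 8, in a fit where 39.8% of all genes passed.

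**Figure D1:**
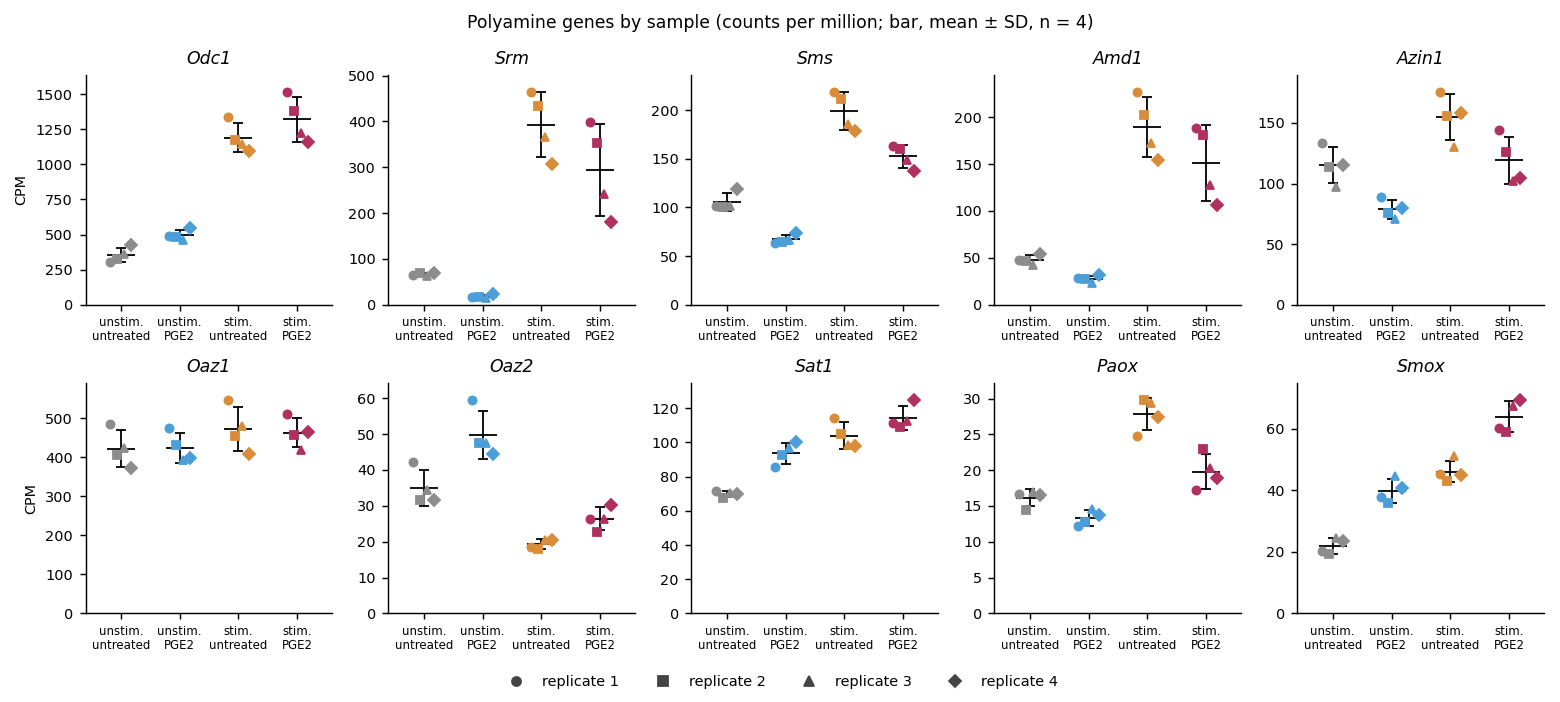
Level of each polyamine gene in every sample, in CPM on a linear axis from 0, by group; each symbol is a replicate number and the black bar with whiskers is the mean ± SD (n = 4). *Srm* ran from 14.5 to 465 CPM, the widest range of the set as a ratio of highest to lowest, whereas *Oaz1* stayed between 373 and 547 CPM in all 16 samples.

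*Odc1*, the gene of the first and rate-limiting enzyme (chromosome 12, 17544794 to 17551505, plus strand), was the most abundant of the set per kilobase in stimulated cells. It stood at 302, 329, 358 and 422 CPM in the unstimulated untreated replicates 1 to 4, and at 488, 482, 462 and 549.9 CPM with PGE2. Stimulated cells held 1338, 1176, 1148 and 1097 CPM without PGE2, and 1518, 1382, 1225 and 1160.2 CPM with it. Every stimulated sample lay above every unstimulated one, and every unstimulated PGE2 sample above the untreated ones, while the stimulated groups overlapped. Stimulation raised *Odc1* by 1.74 ± 0.11 (log2 fold change ± SE) without PGE2 and by 1.43 ± 0.10 with PGE2 (edgeR adjusted p = 6.63e-08 and 1.85e-06). PGE2 raised it by 0.51 ± 0.10 in unstimulated cells (edgeR adjusted p = 0.00289). In stimulated cells the difference was 0.16 ± 0.096 (edgeR adjusted p = 0.308; 0.09 without stimulated PGE2 replicate 1), and with the replicate block 0.15 with an adjusted p of 0.0221. *Odc1* was thus the only synthesis gene of the 4 whose fitted PGE2 effect was above 0 in both states.

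*Srm*, the gene of spermidine synthase (chromosome 4, 148591503 to 148594993, plus strand), had the largest fold changes of the 10 genes in 3 of the 4 comparisons. Unstimulated untreated cells held 65.8, 68.5, 62.9 and 69.7 CPM, and unstimulated PGE2 cells 16.2, 16.2, 14.5 and 22.4 CPM. The stimulated values were 465, 434, 365 and 307 CPM without PGE2 and 399, 354, 243 and 180.4 CPM with it. The unstimulated groups were tight and far apart, and the stimulated groups were wide and overlapped. PGE2 lowered *Srm* to 26.4% of its untreated level in unstimulated cells, a log2 fold change of -1.92 ± 0.12 (edgeR adjusted p = 2.98e-06). In stimulated cells the log2 difference was -0.41 ± 0.23 (edgeR adjusted p = 0.271), and with the replicate block -0.46 with an adjusted p of 0.0015. Without stimulated PGE2 replicate 4, the lowest sample of its group, the difference was -0.23. Stimulation raised *Srm* by 2.55 ± 0.13 without PGE2 and by 4.10 ± 0.26 after PGE2 (edgeR adjusted p = 1.52e-08 and 1.29e-06).

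*Amd1* (chromosome 10, 40287458 to 40302186, minus strand) had the same order of groups as *Srm*. Its level was 48.0, 47.1, 42.7 and 54.4 CPM in unstimulated untreated and 28.4, 27.3, 22.7 and 31.3 CPM in unstimulated PGE2 cells. It was 227, 203, 173 and 155 CPM in stimulated untreated and 189, 181, 128 and 107 CPM in stimulated PGE2 cells. As for *Srm*, the stimulated groups overlapped and no other neighbouring groups did. The log2 fold change on stimulation was 1.97 ± 0.12 without and 2.48 ± 0.19 with PGE2 (edgeR adjusted p = 5.71e-08 and 2.26e-06). PGE2 changed *Amd1* by -0.79 ± 0.098 in unstimulated cells (edgeR adjusted p = 0.000153). In stimulated cells the log2 difference was -0.32 ± 0.18 (edgeR adjusted p = 0.287, and 0.00138 with the replicate block). It was -0.18 without stimulated PGE2 replicate 4 and -0.21 without stimulated untreated replicate 1. Rows named as *Amd2* or *Amd1* pseudogenes, whose reads may be exchanged with *Amd1*, held 2.38% to 5.58% of the *Amd1* counts.

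*Sms* (chromosome X, 157443855 to 157492287, minus strand) passed downwards with PGE2 in both states, and its 4 groups did not overlap. No other member did so without the replicate block, and with it *Srm*, *Amd1*, *Azin1* and *Paox* passed downwards in both states as well. The unstimulated levels were 101, 100.1, 101 and 119 CPM without and 63.8, 64.6, 66.8 and 73.8 CPM with PGE2. The stimulated levels were 219, 212, 186 and 179 CPM without and 164, 160.1, 149 and 138 CPM with PGE2. PGE2 lowered *Sms*, with a log2 fold change of -0.63 ± 0.076 in unstimulated and of -0.37 ± 0.085 in stimulated cells (edgeR adjusted p = 0.000131 and 0.0232). Stimulation raised it by 0.90 ± 0.093 without and by 1.20 ± 0.087 with PGE2 (edgeR adjusted p = 2.67e-06 and 1.99e-06). The row of the pseudogene *Sms-ps* held 14.1% to 31.0% of the *Sms* counts, so how reads were divided between the copies matters more here than for the other genes, and with both rows added the number of members passing did not change in any comparison.

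**Figure D2:**
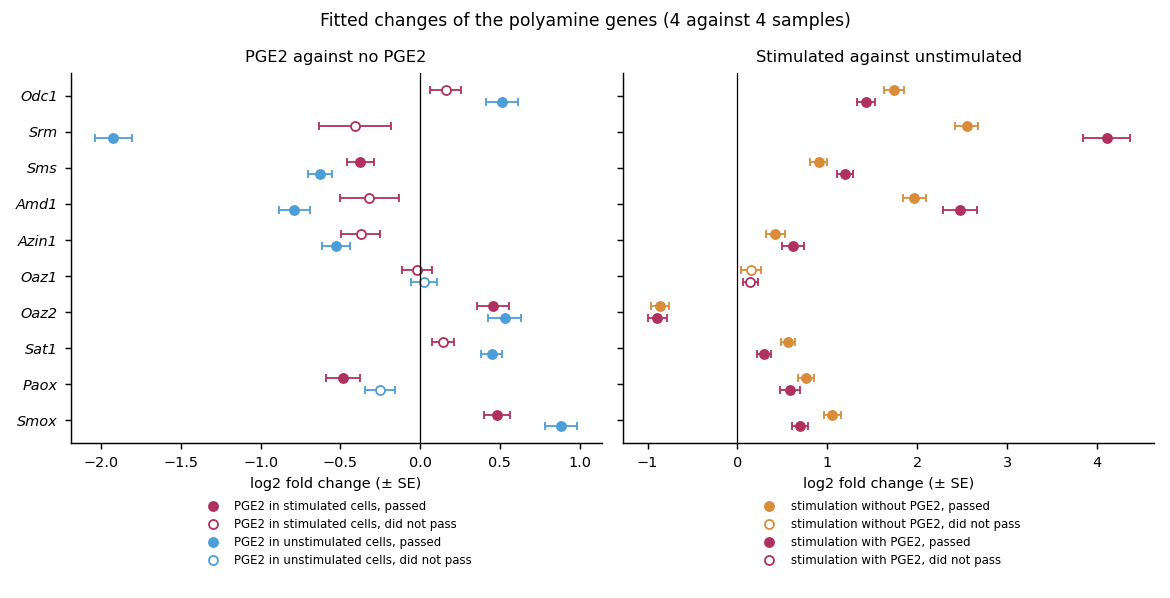
Fitted log2 fold change with its standard error for each gene, for PGE2 against no PGE2 (left; positive means higher with PGE2) and for stimulated against unstimulated cells (right); filled symbols passed an edgeR adjusted p of 0.05. *Srm* lies farthest from 0 in 3 of the 4 comparisons, at -1.92 with PGE2 in unstimulated cells and at 4.10 on stimulation with PGE2, and *Oaz2* is the only gene left of 0 on the right.

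Among the regulators, the RNA of antizyme 1 passed in none of the 4 comparisons (adjusted p in edgeR; at an unadjusted p under 0.05 in none either, and in DESeq2 in none), while that of antizyme 2 passed in all 4. Whether the antizymes differed from each other was not tested. *Oaz1* (chromosome 10, 80826656 to 80829290, plus strand) stood at 373 to 547 CPM over all 16 samples, and its groups overlapped in every comparison. Its log2 fold changes were -0.02 ± 0.094 and 0.02 ± 0.083 for PGE2 in stimulated and unstimulated cells, and 0.15 ± 0.11 and 0.14 ± 0.084 for stimulation without and with PGE2 (edgeR adjusted p = 0.899, 0.866, 0.227 and 0.152). The difference of 0.15 passed with the replicate block (adjusted p = 0.0207), as all 4 same-numbered pairs were higher when stimulated, by 0.14 to 0.17.

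*Oaz2* (chromosome 9, 65668001 to 65690300, plus strand) was the only gene of the set that fell on stimulation. It stood at 42.2, 31.6, 34.4 and 31.5 CPM in unstimulated untreated and at 59.4, 47.5, 47.5 and 44.4 CPM in unstimulated PGE2 cells. With beads it stood at 18.4, 18.1, 20.5 and 20.5 CPM without and at 26.3, 22.7, 26.4 and 30.4 CPM with PGE2. The 4 groups were fully apart, with unstimulated PGE2 the highest and stimulated untreated the lowest. Stimulation lowered *Oaz2*, with a log2 fold change of -0.86 ± 0.10 without and of -0.89 ± 0.11 with PGE2 (edgeR adjusted p = 7.28e-06 and 3.10e-05). PGE2 raised it by 0.53 ± 0.10 in unstimulated and by 0.46 ± 0.10 in stimulated cells (edgeR adjusted p = 0.00287 and 0.0199). The call in stimulated cells was lost without stimulated untreated replicate 1 or 2 or stimulated PGE2 replicate 3 (edgeR adjusted p = 0.0508, 0.0727 and 0.0593). Counts at the pseudogene rows *Oaz1-ps* and *Oaz2-ps* were 0.444% to 1.99% and 0.418% to 2.76% of those at the parent genes.

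*Azin1* is the antizyme inhibitor (chromosome 15, 38487427 to 38519266, minus strand). Its fitted effects had the same sign as those of *Srm*, *Sms* and *Amd1* in each of the 4 comparisons. The same held for the breakdown gene *Paox*, whereas the PGE2 effects of *Odc1* had the opposite sign. Unstimulated cells held 133, 114, 97.4 and 115 CPM without and 89.2, 75.3, 70.6 and 79.6 CPM with PGE2. Stimulated cells held 176, 155, 130.3 and 158 CPM without and 144, 126, 102 and 104 CPM with PGE2. The unstimulated groups were apart and the remaining neighbours in the order of levels overlapped. PGE2 lowered *Azin1* in unstimulated cells (log2 fold change -0.53 ± 0.089, edgeR adjusted p = 0.0011). In stimulated cells the log2 difference was -0.37 ± 0.12 (edgeR adjusted p = 0.0848), and it passed with the replicate block (adjusted p = 0.000477), in 1 fit of all 16 samples (0.0416) and in DESeq2 (0.042). Stimulation raised it by 0.42 ± 0.11 without and by 0.62 ± 0.12 with PGE2 (edgeR adjusted p = 0.00365 and 0.00097).

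The genes of breakdown also rose on stimulation, but PGE2 did not move them as 1 block. *Smox*, which turns spermine back into spermidine (chromosome 2, 131491496 to 131525922, plus strand), rose with either treatment. Its level was 20.2, 19.2, 24.5 and 23.5 CPM in unstimulated untreated and 37.8, 35.9, 44.7 and 40.7 CPM in unstimulated PGE2 cells. It was 45.3, 43.0, 51.0 and 44.9 CPM in stimulated untreated and 60.3, 58.9, 67.3 and 69.2 CPM in stimulated PGE2 cells. Unstimulated PGE2 and stimulated untreated cells overlapped, and the other neighbouring groups did not. PGE2 raised *Smox* by a log2 fold change of 0.88 ± 0.10 in unstimulated and of 0.48 ± 0.080 in stimulated cells (edgeR adjusted p = 9.73e-05 and 0.00555), and it was the only gene of the set whose call in stimulated cells held when any 1 library was left out. Stimulation raised it by 1.06 ± 0.097 without and by 0.70 ± 0.091 with PGE2 (edgeR adjusted p = 9.70e-07 and 6.08e-05).

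*Paox*, which oxidises acetylated polyamines (chromosome 7, 140115799 to 140137224, plus strand), was the least abundant gene of the set per kilobase. Its level was 14.5 to 17.0 CPM in unstimulated untreated, 12.2 to 14.6 CPM in unstimulated PGE2, 24.7 to 29.8 CPM in stimulated untreated and 17.2 to 22.9 CPM in stimulated PGE2 cells. The stimulated groups were apart and the unstimulated groups overlapped. PGE2 lowered *Paox* in stimulated cells, with a log2 fold change of -0.48 ± 0.11 (edgeR adjusted p = 0.0200). In unstimulated cells the log2 difference was -0.25 ± 0.094 (edgeR adjusted p = 0.0661, and 0.00734 with the replicate block). The rise on stimulation was 0.77 ± 0.090 without and 0.58 ± 0.11 with PGE2 (edgeR adjusted p = 8.24e-06 and 0.000902). Of its exon bases, 2.89% are shared with *Echs1* on the opposite strand, which reached 45.6 CPM, and whether counting used strand is not stated. With PGE2 *Smox* was higher and *Paox* lower in all 4 same-numbered pairs in both states, though *Paox* did not pass in unstimulated cells without the block. The share of all genes with 4 pairs in 1 direction was not counted.

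*Sat1*, the acetyltransferase that starts breakdown and export (chromosome X, 155213132 to 155216449, minus strand), stood at 67.5 to 71.6 CPM in unstimulated untreated, 85.7 to 100.02 CPM in unstimulated PGE2, 97.6 to 114 CPM in stimulated untreated and 109 to 125 CPM in stimulated PGE2 cells. Unstimulated untreated cells lay below all other samples, and the other 3 groups overlapped with their neighbours. PGE2 raised *Sat1* by a log2 fold change of 0.45 ± 0.065 in unstimulated cells (edgeR adjusted p = 0.000411). In stimulated cells the difference was 0.14 ± 0.071 (edgeR adjusted p = 0.219). Stimulation raised it by 0.56 ± 0.074 without and by 0.30 ± 0.076 with PGE2 (edgeR adjusted p = 2.33e-05 and 0.00521), and with upper-quartile factors the latter was 0.17 and did not pass (adjusted p = 0.106).

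**Figure D3:**
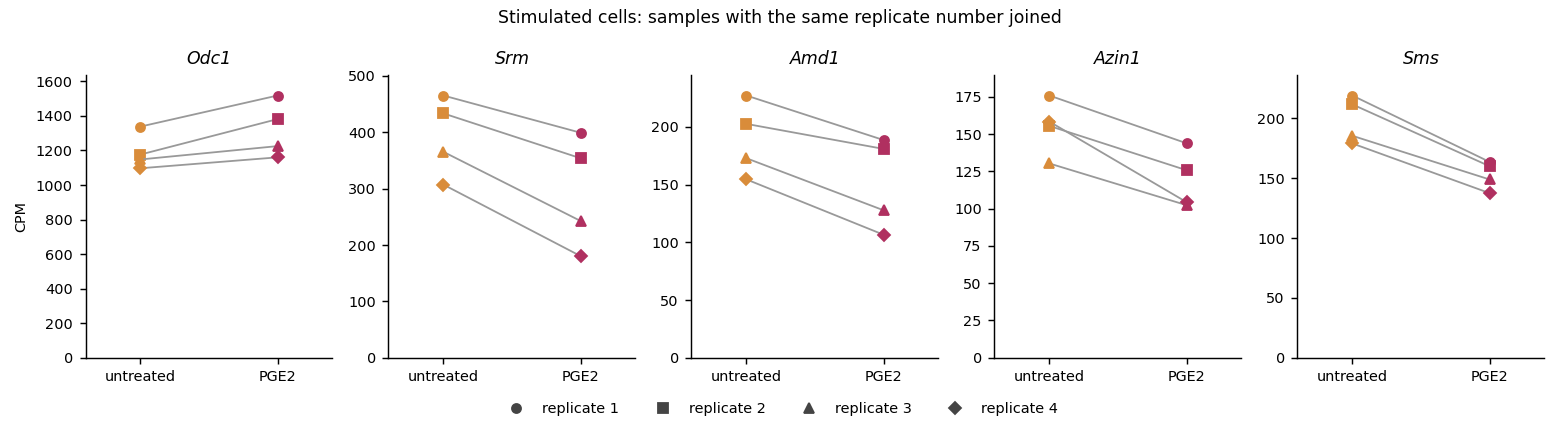
Level in stimulated cells without and with PGE2, in CPM on linear axes from 0. *Odc1*, *Srm*, *Amd1* and *Azin1* passed in edgeR with the replicate block but not in the main fit, and *Sms* passed in both. Lines join samples with the same replicate number. All 4 lines run upwards for *Odc1* and all 4 downwards for *Srm*, *Amd1*, *Azin1* and *Sms*, although the groups overlap for the first 4 genes.

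The samples of a replicate number moved together in stimulated cells, where the correlation of same-numbered samples' deviations over 15096 genes was 0.190 to 0.423. For replicate 2 (0.190) the untreated sample correlated more with a PGE2 sample of another number, so pairing by number is uncertain there. A shared order over the numbers is visible in *Srm* and *Amd1*, for which replicates 1 and 2 lay above replicates 3 and 4 both without and with PGE2. In every pair of same-numbered samples the level was lower with PGE2, with log2 differences of -0.77 to -0.22 for *Srm*, -0.54 to -0.16 for *Amd1*, -0.60 to -0.29 for *Azin1* and -0.42 to -0.32 for *Sms*. *Odc1* was 0.081 to 0.23 higher with PGE2 in the 4 pairs. Passing with a replicate block favours such genes, and the share of all genes with 4 pairs in 1 direction was not counted. With the replicate number as a block, 8 of the 10 genes passed in stimulated cells (3 risen and 5 fallen), and 39.8% of all genes passed in the same fit (19.1% upwards and 20.7% downwards), against 9.84% without the block. The block thus raised the share that passed over all genes too. *Oaz1* (adjusted p = 0.820) and *Sat1* (adjusted p = 0.0689) did not pass with it. With the block 9 of the 10 genes passed for PGE2 in unstimulated cells (47.8% of all genes), 10 for stimulation without PGE2 (72.3%) and 9 for stimulation with PGE2 (67.5%). *Myc*, the gene of a transcription factor that is known to bind at *Odc1*, had the same spread, at 1367, 1310, 1103 and 949 CPM in stimulated untreated and 1291, 1217, 826 and 624 CPM in stimulated PGE2 cells. Its part in the spread of *Srm* and *Amd1* was not tested.

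Whether the effect of PGE2 differed between stimulated and unstimulated cells was tested by an interaction term over all 16 samples. Only *Srm* of the 10 genes passed, with an interaction of 1.53 ± 0.28 on the log2 scale (edgeR adjusted p = 0.0149), against 0.749% of 15096 genes. The PGE2 effect was thus more negative in unstimulated cells, and read the other way the rise on stimulation was larger after PGE2. The value was 1.34 to 1.69 when any 1 library was left out and passed each time, and it did not pass in limma on log2(FPKM + 1) (adjusted p = 0.0699). *Smox* had an interaction of -0.39 ± 0.13 (edgeR adjusted p = 0.263, and 0.0107 with the replicate block), and that of *Sat1* was -0.29 ± 0.095 (edgeR adjusted p = 0.242). With the block 2 of the 10 genes passed, against 2.70% of all genes. At an unadjusted p under 0.05 there were 6 of the 10, against 9.37% of all genes. For *Odc1*, *Sms* and *Amd1* the interactions were -0.34 ± 0.15, 0.27 ± 0.12 and 0.48 ± 0.23, with edgeR adjusted p of 0.46, 0.482 and 0.532.

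Levels were then set against each other within a sample, as ratios of counts per kilobase of exon. The length was that of all annotated exon bases of a gene, which need not be that of the transcript the cells made. The order of genes, and whether a ratio lies above 1, depend on this length. It cancels from the difference of a ratio between groups. In unstimulated untreated cells *Oaz1* was the most abundant of the set (165 CPM per kilobase), followed by *Odc1* (104) and *Srm* (41.7), and the other 7 genes lay between 3.3 (*Paox*) and 25.2 (*Sat1*). In stimulated untreated cells the order was *Odc1* (349), *Srm* (246) and *Oaz1* (185). The ratio of *Odc1* to *Oaz1*, of the decarboxylase to its main antizyme, had a geometric mean of 0.625 in unstimulated untreated, 0.879 in unstimulated PGE2, 1.89 in stimulated untreated and 2.14 in stimulated PGE2 cells. It was above 1 in every stimulated sample (1.80 to 2.26) and above 1 in only 1 unstimulated sample (unstimulated PGE2 replicate 4, at 1.04). Its values with and without PGE2 overlapped in both states (exact permutation p = 0.0857 in each). The ratio of *Azin1* to *Oaz1* was 0.111, 0.0758, 0.134 and 0.104 in the same order of groups, and with PGE2 it did not overlap the untreated values in unstimulated cells.

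The ratio of *Srm* to *Sms*, of the enzyme that makes spermidine to the enzyme that uses it, had the widest span. It was 2.20 to 2.57 in unstimulated untreated, 0.814 to 1.14 in unstimulated PGE2, 6.45 to 7.98 in stimulated untreated and 4.93 to 9.17 in stimulated PGE2 cells. The log2 difference with PGE2 was -1.32 in unstimulated cells, where the groups did not overlap, and -0.088 in stimulated cells, where they did. The ratio of *Odc1* to *Sat1* sets 1 synthesis gene against 1 breakdown gene. It was 4.08 and 4.30 in unstimulated cells without and with PGE2 and 9.32 and 9.38 in stimulated cells. PGE2 shifted it by 0.076 and 0.0096 on the log2 scale in unstimulated and stimulated cells (exact permutation p = 0.543 and 0.971). This ratio does not stand for the other synthesis genes. In unstimulated cells PGE2 changed *Srm*, *Amd1* and *Sms* by -1.92, -0.79 and -0.63, while *Sat1* rose by 0.45. Ratios of these 3 genes to *Sat1* were not computed. Over the 16 tests, 4 ratios in 4 comparisons, the smallest exact two-sided permutation p that 4 against 4 samples allow (0.0286) was reached by 9 and became 0.0508 after Benjamini-Hochberg adjustment, so no ratio passed the correction.

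**Figure D4:**
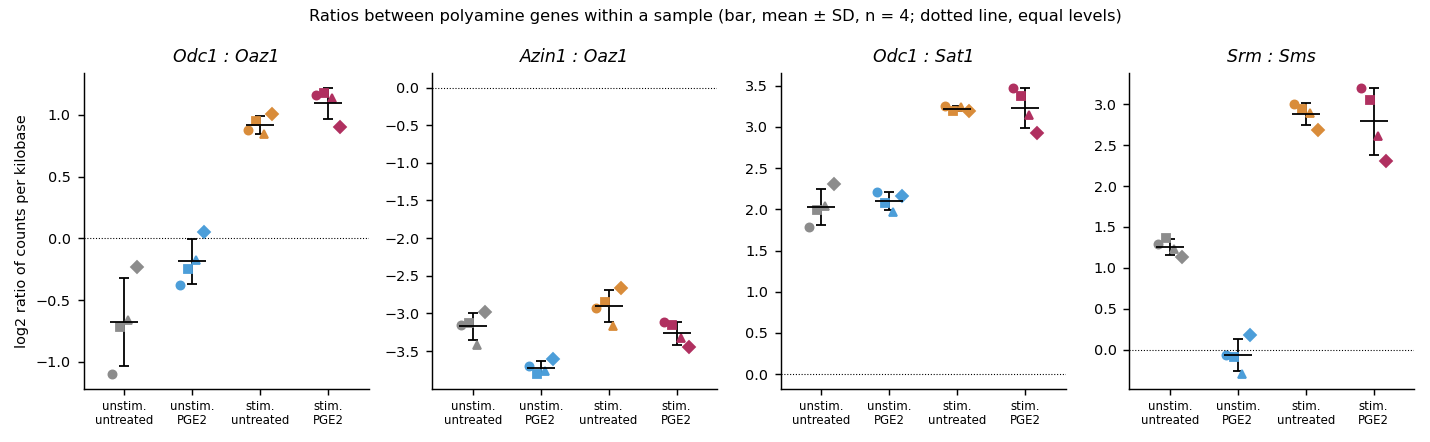
Log2 ratio of counts per kilobase between pairs of polyamine genes within each sample, by group. Symbols are replicate numbers and the black bar is the mean ± SD (n = 4). The dotted line marks equal counts per kilobase of annotated exon. The *Odc1* to *Oaz1* ratio lies above the line in all stimulated samples, and the *Srm* to *Sms* ratio drops to about the line only in unstimulated PGE2 cells.

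Genes that feed or use the pathway were counted from lists written from general knowledge, 44 genes in 5 lists. Neither gene of arginase, which makes ornithine from arginine, passed the filter on low counts (*Arg1* at most 0.211 and *Arg2* at most 0.176 CPM). In unstimulated cells 30 of the 44 were tested with PGE2, of which 3 rose and 10 fell, against 12.9% and 15.5% of all genes (median log2 fold change -0.21, against -0.0010 over all genes). In the list of S-adenosylmethionine supply and methylthioadenosine salvage, 1 of 10 rose and 5 fell, with *Mat2a* (S-adenosylmethionine synthesis) at -1.15 ± 0.085, *Mtap* (which clears the by-product of spermidine and spermine synthesis) at -1.11 ± 0.066 and *Enoph1* (salvage) at -0.50 ± 0.077. Their edgeR adjusted p were 5.90e-06, 2.98e-06 and 0.0006. *Mtap* stood at 57.6, 54.4, 47.4 and 52.6 CPM without and at 25.3, 23.0, 23.9 and 24.6 CPM with PGE2, without overlap. Of 5 transport genes 1 rose and 2 fell, with *Slc7a1*, a carrier of arginine and ornithine, at -0.79 ± 0.10 (edgeR adjusted p = 0.000222). The gene that rose was *Atp13a2*, a lysosomal polyamine exporter, at 0.46 ± 0.087 (edgeR adjusted p = 0.00229), and its relative *Atp13a3* fell, at -0.35 ± 0.093 (edgeR adjusted p = 0.0159). In the ornithine and arginine list 1 of 9 rose (*Asl*, 0.43 ± 0.065) and 2 fell (*Aldh18a1*, -0.43 ± 0.057, and *Ass1*, -0.29 ± 0.085).

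The best known use of spermidine is the hypusine residue of the translation factor eIF5A. *Eif5a* fell with PGE2 in unstimulated cells, from 975 ± 49.7 to 568 ± 57.0 CPM (mean ± SD, n = 4; log2 fold change -0.76 ± 0.074, edgeR adjusted p = 3.29e-05). *Dhps* and *Dohh*, the enzymes that make hypusine, were at -0.016 ± 0.068 and -0.027 ± 0.094, and *Eif5a2* at -0.064 ± 0.081, none of which passed. *Myc* fell as well, from 137 ± 22.6 to 69.0 ± 13.7 CPM (-0.97 ± 0.14, edgeR adjusted p = 0.000422), and *Mycn* was at 0.071 ± 0.23 (edgeR adjusted p = 0.857).

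In stimulated cells PGE2 changed 2 of 29 tested list genes, against 9.84% of all genes, 1 up (*Asl*, 0.30 ± 0.082, edgeR adjusted p = 0.0433) and 1 down (*Ahcy*, which clears S-adenosylhomocysteine, -0.35 ± 0.064, edgeR adjusted p = 0.00842). The call of *Asl* was lost with RLE and upper-quartile factors (adjusted p = 0.0513 and 0.0517). With the replicate block 3 of the 29 rose and 14 fell, against 19.1% and 20.7% of all genes. *Eif5a* stood at 2824, 2443, 2186 and 1960.2 CPM in stimulated untreated replicates 1 to 4 and at 2325, 2040.3, 1632 and 1449 CPM with PGE2, so every pair was lower with PGE2 although the groups overlapped. Its log2 fold change was -0.33 ± 0.15 (edgeR adjusted p = 0.201, and 0.000421 with the block). *Dhps*, *Dohh* and *Eif5a2* were at -0.21 ± 0.10, -0.32 ± 0.17 and -0.11 ± 0.10, and with the block the first 2 passed (adjusted p = 0.00888 and 0.00657). *Mat2a* and *Mtap* passed downwards with the block as well, at -0.47 ± 0.090 and -0.41 ± 0.066 (adjusted p = 0.00218 and 0.000728). *Myc* was at -0.25 ± 0.21 (edgeR adjusted p = 0.469, and 0.0154 with the block) and *Mycn*, at 2.90 ± 0.458 and 1.22 ± 0.131 CPM, fell by 1.24 ± 0.18 (edgeR adjusted p = 0.00279).

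Stimulation without PGE2 raised 18 and lowered 5 of 29 list genes (median 0.60), beside 31.7% of all genes upwards and 34.8% downwards. With PGE2 it raised 18 and lowered 4 of 30 (median 0.52), beside 32.5% and 31.7%. *Mat2a* rose by 2.12 ± 0.16 and 2.91 ± 0.26, *Slc7a1* by 2.00 ± 0.11 and 2.73 ± 0.15, *Mtap* by 1.97 ± 0.13 and 2.74 ± 0.20, *Eif5a* by 1.26 ± 0.11 and 1.73 ± 0.15 and *Myc* by 3.10 ± 0.15 and 3.86 ± 0.25, without and with PGE2. All 10 of these changes passed in edgeR. *Dhps* and *Dohh* rose by 0.80 ± 0.082 and 1.12 ± 0.15 without PGE2 and by 0.65 ± 0.11 and 0.86 ± 0.14 with it, and *Eif5a2* was at 0.062 ± 0.11 and 0.053 ± 0.081 and did not pass. *Aldh18a1* and *Pycr1*, which lie on the routes from glutamate to ornithine and proline, rose by 0.88 ± 0.066 and 1.13 ± 0.16 without and by 1.12 ± 0.076 and 1.25 ± 0.28 with PGE2. *Mycn* was at -0.025 ± 0.21 without PGE2 and fell by 1.30 ± 0.22 with it (edgeR adjusted p = 0.922 and 0.000396). *Atp13a2* fell on stimulation both without PGE2, at -0.72 ± 0.14, and with PGE2, at -0.79 ± 0.14 (edgeR adjusted p = 0.000499 and 0.000414). No list gene passed the interaction test, in which *Eif5a* was at 0.44 ± 0.18, *Myc* at 0.73 ± 0.28 and *Mycn* at -1.30 ± 0.30 (edgeR adjusted p = 0.439, 0.364 and 0.0562). With the replicate block *Mtap*, *Slc7a1* and *Mycn* passed it (adjusted p = 0.0367, 0.0179 and 0.00353).

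The genes whose pattern over the 16 samples was closest to that of *Odc1* were searched among 12253 genes by the root mean square difference of log2 CPM, each gene centred on its own mean. The nearest were *Gm9115* (0.113), *Nfat5* (0.113), *Orai1* (0.118), *Nfkb1* (0.164) and *Jun* (0.168). *Gm9115* was low, at 3.88 and 5.46 CPM in unstimulated cells without and with PGE2 and at 12.9 and 13.6 CPM in stimulated cells. Whether reads were shared between *Gm9115* and *Odc1* was not tested. *Nfat5*, for example, went from 57.5 and 68.7 CPM in unstimulated cells without and with PGE2 to 174 and 193 CPM in stimulated cells. None of the other 9 polyamine genes was near, the closest being *Smox* at 0.430 (rank 488) and the farthest *Oaz2* at 1.26 (rank 10531). For *Sat1* the nearest were *Arih2* (0.0928), *Map2k1* (0.0939), *Dnajc16* (0.09998), *Por* (0.103) and *Ptpn23* (0.104), and the closest polyamine gene was *Oaz1* (0.252, rank 1190). The points of this measure share their libraries, and it is given as a description only.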

How the data were processed

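RNA-seq was analysed from 16 samples, 4 in each of 4 groups. The authors made poly(A)-selected libraries, read both ends, aligned to GRCm38 with HISAT2 2.0.5 (per the submitters' processing notes) and counted with featureCounts 1.5.0-p3. The counts deposited by the authors are unnormalized integers. The FPKM deposited by the authors equal count over length and summed counts, times a factor per sample of 0.878 to 1.11. The annotation release, use of strand and handling of multiply mapped reads are not given in the sources used here. Coordinates of the 10 genes equal GENCODE M21.

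Counts were tested in edgeR 4.0.16 (R 4.3.3) by its two-sided quasi-likelihood test with TMM factors, after filterByExpr at a minimum count of 10, and p-values were adjusted by Benjamini-Hochberg over all genes in the fit. A pairwise fit used its 8 samples without covariates, the interaction all 16. A gene passed at an adjusted p below 0.05, and was a DEG with a fold change of at least 2 as well. SE is the log2 fold change over the square root of F. CPM were TMM-scaled. Ratios were compared by exact permutation. Scripts were tested on simulated data.

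Same-numbered samples deviated together in every pair (correlation over 0.1) for PGE2 in stimulated cells (0.190 to 0.423) and in unstimulated cells (0.137 to 0.444). The same held for stimulation without PGE2 (0.112 to 0.359). For stimulation with PGE2 the range was 0.0439 to 0.281. The main fits and the permutation tests of ratios did not pair samples by number. Pairing entered only the replicate block, the sign-flip test of ratios and the descriptions of same-numbered pairs.

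The 10 genes, the lists and the markers were chosen with earlier results of these data known. All 10 genes are named. Of each list, only the up to 3 genes with the largest change among those passed in a comparison could be named, or any where at most 4 were tested, and not all of these are printed. The 5 genes nearest in pattern to *Odc1* or *Sat1*, among those averaging 1 CPM or more, are named too. *Arg1*, *Arg2*, *Ms4a1*, *Foxp3*, *Cd79b*, *Cd68*, the list genes named for the replicate block, and the sample values of *Mtap*, *Myc* and *Eif5a* were picked after values were seen. One marker chosen at the outset is not reported here and was left out of its list's sum.

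Results were recomputed with DESeq2 1.42.0, with RLE or upper-quartile factors, without the filter, with 10 counts required in each sample, with limma 3.58.1 (trend) on log2(FPKM + 1) or log2(FPKM + 0.1) where FPKM averaged 1 or more, with the replicate block, with near copies added, with the fold threshold, in a fit of the 16 samples together, and without each replicate in turn.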

Additional observations from a re-analysis of the deposited data

Results flagged for a closer look

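*Srm* had a PGE2 effect that differed between stimulated and unstimulated cells by 1.53 on the log2 scale in the interaction test over 16 samples (edgeR adjusted p = 0.0149). In 3 of 56 groups of 4 values checked, 1 sample stood apart from the others by more than Dixon's test allows at its 95% level, and chance alone flags about 1 in 20 such groups. *Sms* in unstimulated untreated replicate 4 was at 119 CPM, above the other 3 replicates at 100.1 to 101 CPM. *Paox* in unstimulated untreated replicate 2 was at 14.5 CPM, below the others at 16.6 to 17.0 CPM. The log2 ratio of *Odc1* to *Oaz1* in stimulated PGE2 replicate 4 was 0.91, below the others at 1.14 to 1.18.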

How the results depend on the processing

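The number of members passing stayed within 1.5 times its value under every other scaling, filter and test, except as follows. With a fold change of at least 2 required as well, it was 0 for PGE2 in stimulated cells, 1 for PGE2 in unstimulated cells, and 4 for stimulation without and 4 with PGE2. With the replicate block it was 8 for PGE2 in stimulated cells and 2 for the interaction, and it was 9, 10 and 9 for PGE2 in unstimulated cells and stimulation without and with PGE2. With limma on log2(FPKM + 1) it was 0 for the interaction (*Srm* 1.38, adjusted p = 0.0699). Leaving out each replicate in turn gave 1 to 5 for PGE2 in stimulated cells, 8 to 9 for PGE2 in unstimulated cells, 9 for either stimulation and 1 for the interaction. Values near 0 changed sign when a replicate was left out, none of them called. The log2 fold change of *Oaz1* ran from -0.0843 to 0.0646 and from -0.0316 to 0.0933 for PGE2 in stimulated and unstimulated cells, its interaction from -0.107 to 0.0213 and that of *Oaz2* from -0.156 to 0.0286. The log2 ratio of *Odc1* to *Sat1* ran from -0.0727 to 0.112 and from -0.00689 to 0.167 for PGE2 in stimulated and unstimulated cells, and that of *Srm* to *Sms* from -0.223 to 0.0759 for PGE2 in stimulated cells. Pairing the ratios by replicate number gave an exact sign-flip p of 0.125 at the smallest, the least that 4 pairs allow, and changed no call. The lowest count of a member was 346 (*Paox*).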
